A study of Mus musculus with 18 samples.

Results

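The genes described here are 31 that carry out or accompany glycolysis and the cellular response to low oxygen. They were taken from a list of gene symbols, with no threshold on their values. They are 31 of the 22049 genes listed in the count tables of the series, and 30 of them have a row in each of the 18 tables, Adm being unlisted in healthy spleen of day 7 and tumour-bearing scaffold of day 14. By role, 5 bring glucose into the cell and trap it (Slc2a1, Slc2a3, Hk1, Hk2, Hk3) and 7 belong to upper glycolysis (Gpi1, Pfkl, Pfkp, Pfkfb3, Pfkfb4, Aldoa, Tpi1). Another 5 belong to lower glycolysis (Gapdh, Pgk1, Pgam1, Eno1, Pkm) and 3 set the fate of pyruvate and lactate (Ldha, Slc16a3, Pdk1). The last 11 are the hypoxia factor Hif1a and genes known as its targets or companions (Egln3, Vegfa, Adm, Bnip3, Bnip3l, Ero1l, P4ha1, Ndrg1, Ddit4, Mif).

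Single cells were measured by Drop-seq, in which each cell shares a droplet with a barcoded bead and every transcript receives a unique molecular identifier (UMI). The cells came from lung, spleen and an implanted biomaterial scaffold, an implant that host cells enter, of female BALB/cJ mice aged 9, 10 or 11 weeks. Cells of tumour-bearing mice were taken 7, 14 or 21 days after 2000000 4T1-tdTomato-luc2 cells, a labelled BALB/c mammary carcinoma line, had been placed in a mammary fat pad, and healthy mice of the same days received no tumour cells. There was 1 library per tissue, status and day, so each group of tissue and status holds 3 libraries of different days, and since the number of animals behind a library is not stated, p-values measure the spread between libraries only. The tumours came from injected cells of 1 line, and scaffolds were carried by both groups.

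Glycolysis turns glucose into pyruvate and yields ATP without oxygen, and pyruvate can then be reduced to lactate and exported. When oxygen falls, the factor HIF-1, of which Hif1a encodes the regulated subunit, is no longer degraded and raises transcription of glucose transporters, most glycolytic enzymes and genes such as Bnip3, P4ha1 and Vegfa. Neutrophils hold few mitochondria and are known to depend largely on glycolysis, whereas resting lymphocytes rely more on respiration.

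The tables hold 26397 barcodes with 39064142 UMIs, 292765 to 4530115 per library with a median per barcode of 383 to 1034.5. Healthy lung and healthy spleen of day 21 stood apart: 76.0% and 94.7% of their barcodes also occurred in another library of that day and did not hold at least 5 times the UMIs found there. A list of 7 epithelial and tumour cell genes reached 1219 and 1304 CPM (UMIs per 1000000 UMIs of a library or class) in these libraries, against at most 472 in the other 16, and Mif reached 1708 and 1496 CPM, against at most 520 elsewhere. Several libraries shared 279 of the 5684 distinct barcodes of day 7, 103 of 8932 of day 14 and 1046 of 7545 of day 21. Calls are given with and without both libraries where they enter a comparison. In the 24536 cells kept, the members together made up 0.155% (healthy spleen of day 14) to 0.565% (healthy spleen of day 21) of the UMIs of a library.

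Cells were sorted into classes by genes that are not members. Neutrophils (S100a8 and S100a9 at 5% or more of a cell's UMIs) numbered 6571, macrophages with C1q transcripts (2 or more UMIs of C1qa, C1qb and C1qc) 2462 and lymphocytes (2 or more UMIs of B and T cell receptor genes and the like) 3679. Other markers were checked in the classes. A list of 8 other neutrophil genes, among them Csf3r and Retnlg, summed to a median of 11164 CPM in neutrophils, against 92.3 in the macrophages and 93.6 in lymphocytes. Another 8 macrophage genes, among them Apoe and Csf1r, summed to a median of 32423 in the macrophages, 527 in neutrophils and 432 in lymphocytes. A list of 8 T and NK cell genes summed to a median of 1547 in lymphocytes, 245 in the macrophages and 66.2 in neutrophils. The 8 B cell genes, Cd74 among them, barely separated lymphocytes from the macrophages, with medians of 6085 and 5125, against 180 in neutrophils. Of S100a8 and S100a9 themselves, a median of 281 CPM was found in the macrophages and 534 in lymphocytes, against 156297 in neutrophils. Single libraries reached 5543 in the macrophages and 10533 in lymphocytes. How much of this is neutrophil RNA outside that class was not tested. UMIs were summed over the cells of each class wherever a library held 20 or more of them, giving 16 neutrophil, 14 macrophage and 15 lymphocyte sums. The lung and spleen macrophage sums held 22 to 102 cells. When each shared barcode was kept in 1 library at most, 1 to 23 remained, and only tumour-bearing spleen of day 14 kept 20 or more. Scaffold macrophage sums held 224 to 535 cells before and 224 to 531 after. Tallies of libraries against the macrophages therefore rest partly on shared barcodes.

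The members' summed level was highest in neutrophils, at 3042 to 6101 CPM with a median of 4356. In the macrophages it ran from 1785 to 4238 with a median of 3326, and in lymphocytes from 1404 to 3989 with a median of 1894. The ranges overlapped. The highest lymphocyte sum came from healthy scaffold of day 14, with 38 cells. Within lymphocytes the 5 scaffold sums, 1938 to 3989, lay above the 5 lung sums, 1511 to 1894.

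**Figure D1:**
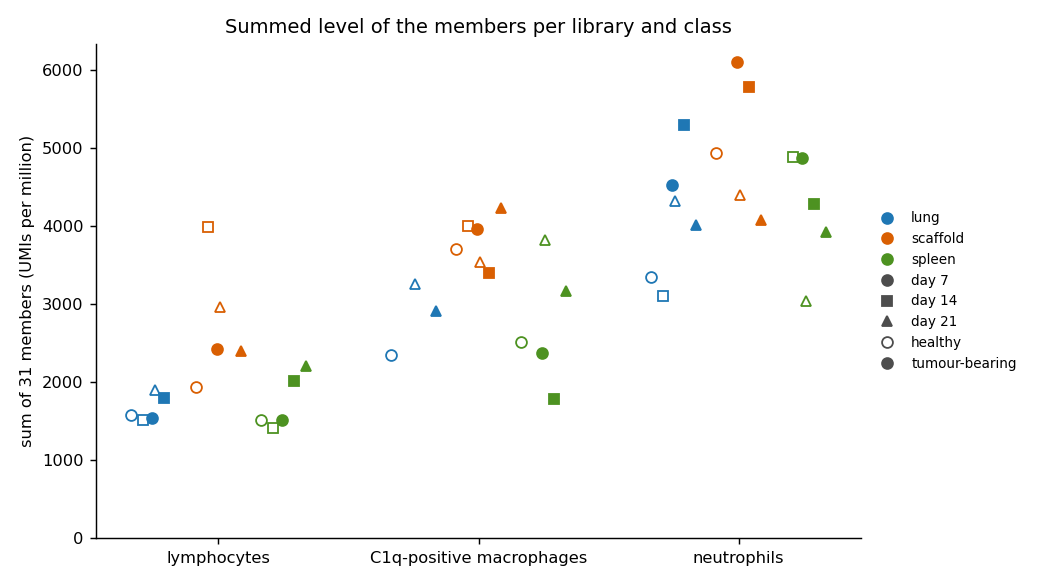
Summed level of the 31 members in CPM (vertical axis) for each class (horizontal axis), 1 point per library with 20 or more cells of the class. Colours stand for tissues, shapes for days, and open or filled points for healthy or tumour-bearing mice. Neutrophil sums reach from 3042 to 6101 and lymphocyte sums from 1404 to 3989.

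The first comparison asked which members differed between cell classes of the same libraries. Between neutrophils and the macrophages Slc2a3 and Slc16a3 had the largest differences of the 15 members tested. Slc2a3, the high-affinity glucose transporter GLUT3, had 1764 UMIs in the neutrophil sums and 9 in the macrophage sums. Slc16a3, the lactate exporter MCT4, was 19.8-fold higher in neutrophils. P4ha1, a collagen prolyl hydroxylase, and the cytokine Mif were the members that were lower in neutrophils.

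Of the 31 members 15 passed the filter on low counts for these sums and 16 did not, so the counts below cover members abundant enough to be tested. A gene was called at an adjusted p under 0.05 with edgeR's quasi-likelihood test, Benjamini-Hochberg adjustment over all 2534 genes tested and the library as a block. Against the macrophages 10 members were higher in neutrophils, where 30.9% of all genes tested were, and 2 were lower, where 37.2% of all genes were. The filter partly set these counts: Slc2a3, at 2.43 CPM or less in the macrophages, could pass only through other classes, while Hk2 (median 74.3 CPM in the macrophages and 50.9 in neutrophils) and Ndrg1 (74.6 and 16.7) were not tested. The counts are therefore a description of the members tested. Slc2a3 was at 0 to 442 CPM in neutrophils, with a median of 188, and at 0 to 2.43 in the macrophages, with a median of 0. The level was higher in neutrophils in 11 of 12 libraries that held both classes and was at 0 in both in the remaining one, with a difference of 7.67 ± 0.415 (log2 ± SE, adjusted p = 5.8e-18 in edgeR). Slc16a3 was at 32.4 to 1060 CPM in neutrophils (median 265) and at 0 to 54.3 in the macrophages (median 24.4), a difference of 4.31 ± 0.388 that held in 11 of 12 libraries (adjusted p = 3.16e-12, edgeR).

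Hexokinases phosphorylate glucose and so keep it in the cell. Hk3, the isoform of myeloid cells, was 2.29-fold higher in neutrophils than in the macrophages (log2 1.19 ± 0.311, adjusted p = 0.00102 in edgeR, 9 of 12 libraries), whereas Hk1 and Hk2 did not pass the filter. Hk2 had a median level of 50.9 CPM in neutrophils, 74.3 in the macrophages and 15.2 in lymphocytes. In upper glycolysis Gpi1, which isomerises glucose 6-phosphate, was 3.20-fold higher in 12 of 12 libraries (log2 1.68 ± 0.225, adjusted p = 3.65e-08, edgeR). In lower glycolysis Pkm, which makes pyruvate, was 2.53-fold higher in 12 of 12, Gapdh 2.30-fold in 11 of 12 and the enolase Eno1 1.58-fold in 9 of 12. Ldha, which makes lactate, was called 1.52-fold higher in the fit but was higher in CPM in only 5 of 12 libraries, with a median of 299 in neutrophils and 302 in the macrophages. Gapdh, Pgk1, Aldoa, Eno1, Pgam1, Ldha, Tpi1, Pkm and Mif have processed pseudogene copies, so their counts depend on how the authors placed reads that match several loci, which the sources used here do not give.

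Among the hypoxia genes Hif1a was 2.39-fold higher in neutrophils (8 of 12 libraries) and Bnip3l, a receptor for the removal of mitochondria, 1.59-fold (8 of 12). Mif fell to 0.439 of the macrophage level (log2 -1.19 ± 0.268, lower in 9 of 12) and P4ha1 to 0.414 (log2 -1.27 ± 0.324, lower in 12 of 12, adjusted p = 8.20e-04 in edgeR). Eno1 was called under 6 of 13 alternatives and was lost without any 1 of the days, and Ldha was called under 7 and was lost without day 14, without day 21 and without the library block. Bnip3l and P4ha1 were lost without day 21 and when each shared barcode was kept in 1 library at most, and Gapdh in the latter case. All 12 were called without healthy lung and spleen of day 21. Scaling by library totals alone left no call for Bnip3l, Eno1, Hk3 and Ldha. It moved the median of all genes from -0.17 to -0.67 and the share of higher among called genes from 45.4% to 28.4%. None of the 12 called members reversed its direction under the alternatives in which it was tested.

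Against lymphocytes 13 members were higher in neutrophils (32.8% of all genes) and 1 lower (35.6%). The same limit of the filter holds here, as Hk3 and Slc16a3 were at or near 0 in lymphocytes. Hk3 differed most: it was at 0 to 192 CPM in neutrophils (median 132) and at 0 to 18.5 in lymphocytes (median 0), where 9 UMIs were counted in all 15 sums. The difference was 6.08 ± 0.440 and was seen in 13 of 13 libraries (adjusted p = 6.46e-15, edgeR). Slc16a3 differed by 5.76 ± 0.385 and Slc2a3 by 3.77 ± 0.274, each in 13 of 13 libraries. The median level of Slc2a3 in lymphocytes, 22.4 CPM, lay between those of neutrophils and the macrophages.

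Of the remaining members higher in neutrophils than in lymphocytes, Pkm (5.48-fold) and Gpi1 (4.61-fold) were so in 13 of 13 libraries. Gapdh was 3.68-fold higher, the aldolase Aldoa 2.83-fold and the ATP-making kinase Pgk1 2.76-fold, each in 12 of 13. Eno1 (2.24-fold), Hif1a (2.06-fold), Tpi1 (1.97-fold), Ldha (1.91-fold) and Bnip3l (0.59 on the log2 scale) were higher in 8 to 10 of 13. Mif was lower in neutrophils in 12 of 13 libraries (log2 -0.81 ± 0.262, adjusted p = 0.00658 in edgeR). Tpi1 and Bnip3l were lost without day 7 and without day 14, Hif1a without day 7, and Mif without the library block and without the count filter. All 14 were called without healthy lung and spleen of day 21. Library totals alone ended the calls of Hif1a, Ldha, Bnip3l and Tpi1, moved the median of all genes to -0.66 and brought the share of higher among called genes from 47.9% to 29.9%. Without day 14 there were 8 members called, and Hk3, Slc16a3, Slc2a3 and Pgk1 did not pass the filter.

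Macrophages against lymphocytes gave 8 members higher (28.1% of all genes) and 1 lower (27.5%). Here too the filter partly set the counts, which describe the members tested. Slc2a3 and Slc16a3 had their highest median levels in neutrophils, at 188 and 265 CPM, and Hk3 had 9 UMIs in the lymphocyte sums. Hk2 (median 74.3 CPM in the macrophages and 15.2 in lymphocytes) and Ndrg1 (74.6 and 16.9) were not tested. The higher ones were Hk3 (29.5-fold), P4ha1 (3.23-fold), Slc16a3 (2.75-fold), Tpi1 (2.55-fold), Aldoa (2.29-fold), Pkm (2.17-fold), Pgk1 (1.86-fold) and Gapdh (1.60-fold). Slc2a3 was the lower one, by 3.90 ± 0.492 on the log2 scale, in 9 of 11 libraries and at 0 in both classes in the others (adjusted p = 1.60e-08, edgeR). Slc16a3 was higher in 6 and lower in 4 of 11 libraries, and its call was lost without day 21 and in cells with 400 or more genes. Gapdh was called under 8 of 13 alternatives. It was lost without day 7, without day 21, without the library block and without the count filter. It was also lost without healthy lung and spleen of day 21. Pgk1 was lost without the count filter. Without day 14 there were 5 members called: Aldoa, Gapdh, P4ha1, Pkm and Tpi1.

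**Figure D2:**
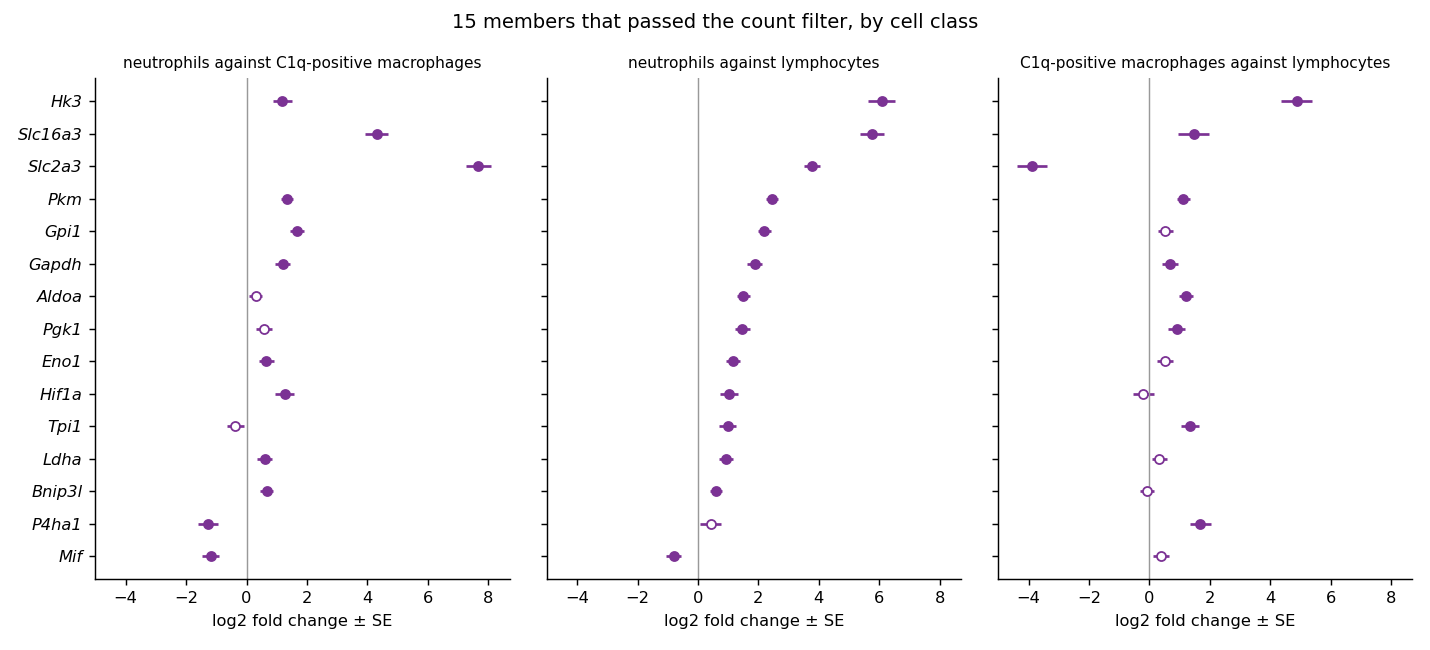
Log2 fold change with its standard error (horizontal axis) for the 15 members tested between classes, ordered by neutrophils against lymphocytes. Filled points passed an adjusted p under 0.05 and open points did not. Slc2a3 stands at 7.67 against the macrophages and 3.77 against lymphocytes, and it is negative between macrophages and lymphocytes.

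The promoters of Slc16a3, Hk3 and P4ha1 are shown because these members, with Slc2a3, were called in the most comparisons. Each is the RefSeq window of GRCm38.p6 from 250 bases before to 50 after the transcript start, 5′ to 3′ on the gene's strand. Capitals mark the cores of the hypoxia response element, ACGTG and GCGTG, on either strand, so that CACGT is ACGTG read on the opposite strand. Slc16a3 lies at chr11:120948817-120949116 on the plus strand, Hk3 at chr13:55021336-55021635 on the minus strand and P4ha1 at chr10:59323046-59323345 on the plus strand.
Slc16a3: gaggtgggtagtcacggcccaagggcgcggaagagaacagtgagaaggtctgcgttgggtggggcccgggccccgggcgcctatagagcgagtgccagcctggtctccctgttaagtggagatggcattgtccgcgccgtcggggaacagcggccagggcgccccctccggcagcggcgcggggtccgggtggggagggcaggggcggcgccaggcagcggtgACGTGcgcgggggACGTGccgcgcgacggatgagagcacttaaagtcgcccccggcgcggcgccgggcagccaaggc
Hk3: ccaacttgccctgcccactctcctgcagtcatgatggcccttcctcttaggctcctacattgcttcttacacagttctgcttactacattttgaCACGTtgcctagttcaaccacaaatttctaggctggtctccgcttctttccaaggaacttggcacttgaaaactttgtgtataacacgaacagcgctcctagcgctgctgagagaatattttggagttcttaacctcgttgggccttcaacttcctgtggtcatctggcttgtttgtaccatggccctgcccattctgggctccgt
P4ha1: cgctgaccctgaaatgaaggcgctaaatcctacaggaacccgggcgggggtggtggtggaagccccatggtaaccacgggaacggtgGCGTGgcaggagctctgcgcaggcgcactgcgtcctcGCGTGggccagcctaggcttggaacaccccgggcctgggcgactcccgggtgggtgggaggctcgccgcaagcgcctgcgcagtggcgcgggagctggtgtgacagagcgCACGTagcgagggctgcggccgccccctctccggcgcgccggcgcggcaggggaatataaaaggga
The Slc16a3 window holds 2 ACGTG cores, that of Hk3 holds 1, and that of P4ha1 holds 1 ACGTG and 2 GCGTG cores. A promoter was found for 28 of 31 members, 38 windows in all, of which 81.6% held at least 1 core on either strand. Of all 32851 windows of the same length 43.8% did (ACGTG 19.6%, GCGTG 32.4%), and the median GC content was 64% in the members' windows and 52.7% in all, which bears on how often such letters occur. A match describes the letters only.

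The second comparison asked whether neutrophils of tumour-bearing mice differed in these genes between the scaffold and the other tissues. Ero1l, an oxidase of the endoplasmic reticulum that HIF-1 is known to raise, was higher in scaffold than in lung neutrophils. Slc2a1, Slc16a3, Hif1a, Bnip3 and P4ha1 were higher in scaffold than in spleen neutrophils. None of the glycolytic enzymes that passed the filter was called in either comparison in edgeR.

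In these fits 23 of 31 members passed the filter, which partly set the counts below. Ero1l, at 23.1 CPM or less in tumour-bearing lung neutrophils, could pass only through other sums. The model held all 16 neutrophil sums, with a term for each tissue and status and the day as a block. Ero1l was at 126, 204 and 25.5 CPM in scaffold neutrophils of days 7, 14 and 21, and at 23.1, 17.9 and 12.7 in lung neutrophils. The lowest scaffold value lay just above the highest lung value, so the groups did not overlap, and days 7 and 14 carried most of the distance. The difference was 2.49 ± 0.604 (log2 ± SE, 5.62-fold, 3 of 3 days, adjusted p = 0.0292 in edgeR). Ero1l was the only member among the 0.804% of genes called higher, and it was not called without day 14, without the day block or in cells with 400 or more genes. Without day 21 Bnip3 and Mif were called as well, 3 members in all. Spleen neutrophils held 66.5, 69.5 and 82.3, between the early and the late scaffold values.

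The Ero1l promoter (chr14:45318523-45318822, minus strand, GRCm38.p6, RefSeq) is shown because this member was called between scaffold and lung neutrophils, a choice made after its values were seen, and it holds 1 ACGTG and 2 GCGTG cores.
Ero1l: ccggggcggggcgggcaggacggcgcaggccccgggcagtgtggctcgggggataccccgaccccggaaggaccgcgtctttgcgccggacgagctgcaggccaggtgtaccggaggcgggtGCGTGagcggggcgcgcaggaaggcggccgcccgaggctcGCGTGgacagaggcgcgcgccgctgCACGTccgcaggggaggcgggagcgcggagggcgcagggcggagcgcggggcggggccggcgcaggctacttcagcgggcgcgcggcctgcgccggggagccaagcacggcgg

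Against spleen neutrophils 5 members were higher in the scaffold (9.5% of all genes) and none lower (14.2% of all genes), each in 3 of 3 days. The limit of the filter holds here too. Bnip3, P4ha1 and Slc2a1 were low in tumour-bearing spleen neutrophils and could pass only through other sums. The count is therefore a description of the members tested. Slc16a3 was at 1061, 540 and 178 CPM in scaffold neutrophils of days 7, 14 and 21 and at 255, 145 and 32.4 in spleen neutrophils. Both tissues were highest at day 7 and lowest at day 21, so the groups overlapped across days but not within one. The difference was 2.14 ± 0.508 (adjusted p = 0.00289, edgeR), and lung neutrophils, at 366, 340 and 133, lay between the 2 tissues at each day.

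Slc2a1, the widespread glucose transporter GLUT1, was at 70.8, 16.4 and 26.5 CPM in scaffold and at 11.1, 11.1 and 2.99 in spleen neutrophils (2.07 ± 0.682, adjusted p = 0.0265 in edgeR). These values did not overlap, but the sums of scaffold of day 14 and spleen of day 7 held 122322 and 180558 UMIs of all genes. Slc2a1 there rests on very few UMIs, so its lack of overlap is not firm. Hif1a was at 487, 213 and 158 against 183, 57.9 and 42.9, and overlapped only through spleen of day 7 (1.71 ± 0.444, adjusted p = 0.00612). The hypoxia targets completed the group. Bnip3, a receptor for the removal of mitochondria, was at 189, 302 and 28.5 against 33.2, 19.0 and 23.4 (2.19 ± 0.530, adjusted p = 0.00346, edgeR), overlapping through day 21. P4ha1 was at 118, 98.1 and 37.3 against 16.6, 21.3 and 7.98 CPM, without overlap (2.22 ± 0.534, adjusted p = 0.00321, edgeR). Slc2a3, the transporter that set neutrophils apart from the macrophages, was not called between tissues: it stood at 142, 237 and 177 in scaffold, 329, 263 and 200 in lung and 238, 149 and 85.3 in spleen neutrophils. Its differences were -0.40 ± 0.455 against lung and 0.39 ± 0.463 against spleen.

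Without day 21 there were 8 members called, without Slc2a1. Without day 14 the calls of Slc16a3 and Slc2a1 against spleen stayed and the other 3 were lost, and without the day block only Bnip3 was called. The call of Slc2a1 was lost without day 7, without day 21, with stricter gates and with the gate genes left out. Under size factors in place of TMM the median of all genes moved from 0.03 to 0.23 and the share of higher among called genes from 40.1% to 57.0%. Other measures differed between these neutrophils. The granule genes Ltf, Camp and Ngp, typical of immature neutrophils, summed to 28124 to 49971 CPM in spleen, 794 to 7980 in scaffold and 485 to 9461 in lung neutrophils. The 8 macrophage genes summed to 1001 to 2492 in scaffold neutrophils, 384 to 741 in lung and 240 to 332 in spleen, and 9 genes induced by dissociation to 8854 to 12097 in scaffold, 10297 to 16680 in lung and 2735 to 10085 in spleen. Their part in the differences was not tested. In the 6 scaffold macrophage sums the level was 22.3 to 42.6 CPM for Slc16a3, 76.6 to 187 for Hif1a, 12.2 to 24.0 for Slc2a1, 41.7 to 81.4 for Bnip3, 20.1 to 45.0 for Ero1l and 93.9 to 164 for P4ha1. For Slc16a3 each of the 3 scaffold neutrophil values was above that range, and for P4ha1 none was.

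**Figure D3:**
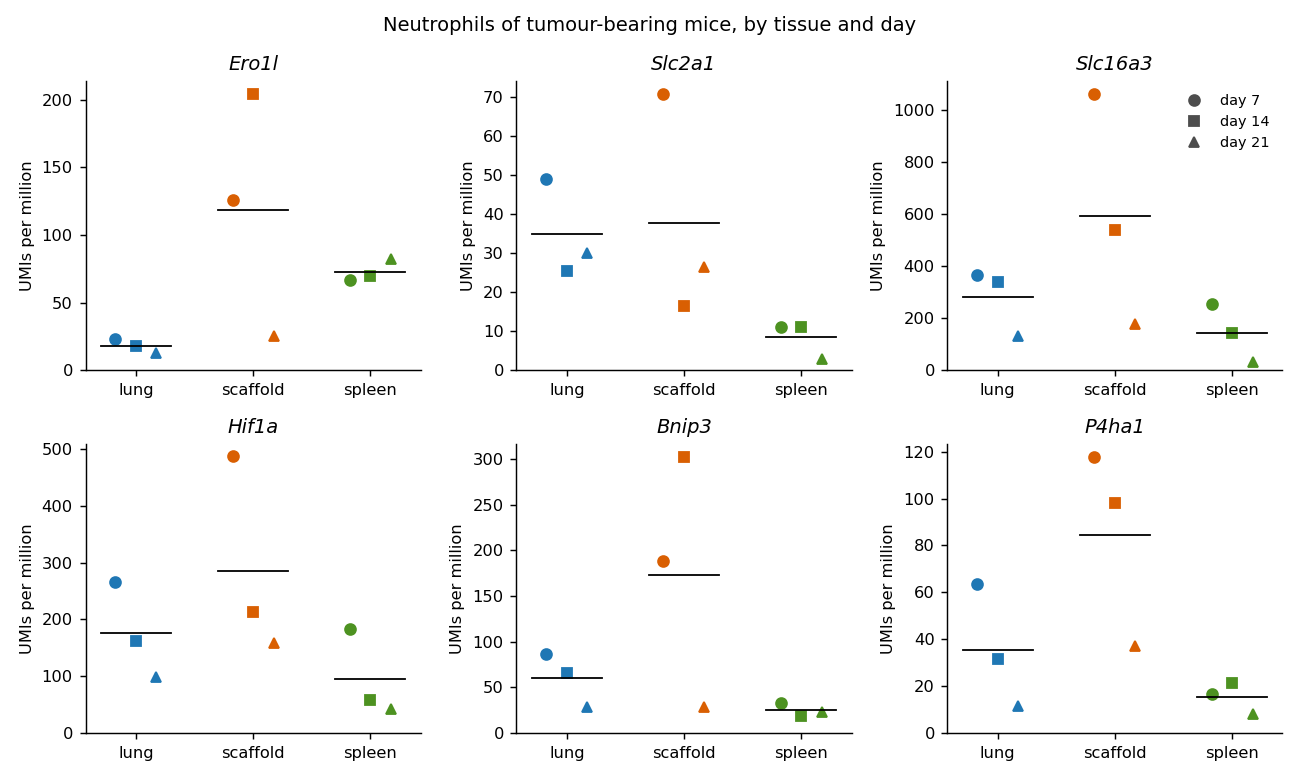
Level in CPM (vertical axis, from 0) of 6 members in neutrophils of tumour-bearing mice by tissue, 1 point per library, with shapes for days and a line at the mean of 3 libraries. Ero1l in lung stays at or below 23.1, and Slc16a3 in scaffold falls between 178 and 1061.

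Among the other 30 hypoxia and 25 glycolysis genes listed for comparison, 10 and 4 were tested in neutrophils. Fam162a, a hypoxia-induced mitochondrial protein gene, was higher in scaffold neutrophils than in lung (2.42 ± 0.618, adjusted p = 0.0433 in edgeR) and than in spleen (1.85 ± 0.617, adjusted p = 0.0272). Against spleen Hmox1 (1.63), Nampt (1.48) and the transporter Slc2a6 (2.73) were also higher. Of 35 genes of the citric acid cycle and respiratory chain 25 were tested, and 9 were lower in scaffold than in spleen neutrophils, where 14.2% of all genes were, led by Uqcrb (-2.49) and Atp5o (-2.45), with a median of -1.15 against 0.03 for all genes.

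Neutrophils of tumour-bearing and healthy lungs were compared as well, with 35 to 65 cells per healthy library. With each shared barcode kept in 1 library at most, 41, 61 and 2 of the healthy cells of days 7, 14 and 21 remained. None of 23 members tested was called (1.02% of all genes were), 7 had an unadjusted p under 0.05, and DESeq2 called Ndrg1 lower. Gapdh had the lowest p: it was at 359, 53.4 and 393 CPM in healthy and 715, 930 and 547 in tumour-bearing lung neutrophils (2.18 ± 0.654, adjusted p = 0.111 in edgeR). Those values did not overlap, and Gapdh was called higher without healthy lung and spleen of day 21, without day 21, with stricter gates and without the count filter. Slc2a3 stood at 442, 347 and 131 in healthy and at 329, 263 and 200 in tumour-bearing lung neutrophils (0.17 ± 0.523). These values overlapped only through healthy lung of day 21. Its sum held 15286 UMIs of all genes, so Slc2a3 there rests on very few UMIs. For Slc16a3 the difference was 0.50 ± 0.584, for Hk3 1.23 ± 0.689 and for Pfkfb4, which sets the level of the activator of phosphofructokinase, 0.69 ± 0.668. Library totals alone moved the median of all genes from 0.20 to -0.24 and the share of higher among called genes from 60.6% to 30.0%, and size factors moved them to -0.06 and 46.7%.

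In the macrophages none of 12 tested was called between tumour-bearing and healthy scaffolds (0.0994% of genes were), none had an unadjusted p under 0.05, DESeq2 called none, and differences ran from -0.15 to 0.33 with standard errors of 0.231 to 0.378. Between scaffold and lung macrophages none of 12 was called either (0.0994% of genes), 2 had an unadjusted p under 0.05 and DESeq2 called none. Gapdh came nearest (1.36 ± 0.369, adjusted p = 0.212 in edgeR) and was called without healthy lung and spleen of day 21, a fit in which the median of all genes was 1.90. Only 1 tumour-bearing lung library held enough of these cells. Lung macrophages numbered 33 in healthy lung of day 7, 60 in healthy lung of day 21 and 102 in tumour-bearing lung of day 21. With each shared barcode kept in 1 library at most, 6, 4 and 2 of them remained. Most cells of the lung side thus had barcodes shared with another library, and the part of such barcodes in this result was not tested.

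In lymphocytes 13 members were tested. Between scaffold and lung none was called (2.84% of genes were), 5 had an unadjusted p under 0.05, and DESeq2 called Aldoa, and edgeR again called none without healthy lung and spleen of day 21. Aldoa was at 161 to 603 CPM in 5 scaffold sums of 38 to 79 cells each and at 0 to 161 in 5 lung sums (1.11 ± 0.336, adjusted p = 0.0738 in edgeR). The macrophage genes summed to 627 to 1028 CPM in scaffold lymphocytes and 199 to 445 in lung lymphocytes, and the part of such RNA was not tested. Between tumour-bearing and healthy lung lymphocytes none was called (0.292% of genes were), none had an unadjusted p under 0.05, DESeq2 called none, edgeR without healthy lung and spleen of day 21 called none, and differences ran from -0.35 to 0.87.

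The third comparison asked how a tumour changed the members in whole tissues, from UMIs summed over all kept cells of a library. In lung 7 members rose, among them glucose entry (Slc2a3, Hk3), flux control (Pfkfb3, Pfkfb4) and lactate export (Slc16a3). In spleen Slc2a3, Hk3 and Pfkfb4 rose, and in scaffold none was called. Neutrophils made up 5.58%, 5.84% and 3.40% of cells in healthy lung at days 7, 14 and 21 and 34.5%, 57.5% and 60.1% in tumour-bearing lung. In such sums more or fewer cells of a type and more or less RNA of a gene per cell cannot be told apart.

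All 31 members passed the filter here, in a model of 18 libraries and 11158 genes with terms for every combination of tissue and day. In lung 7 of 31 were called higher (6.16% of all genes) and none lower. Slc2a3 was at 43.9, 17.4 and 9.82 CPM in healthy lung of days 7, 14 and 21 and at 111, 152 and 161 in tumour-bearing lung. Every tumour-bearing value was above every healthy one (2.95 ± 0.507, 7.72-fold, adjusted p = 0.00416 in edgeR). Hk3 was at 12.5, 7.82 and 24.5 against 64.5, 81.4 and 115, again without overlap (2.89 ± 0.491, 7.40-fold, adjusted p = 0.00383), while Hk1 (-0.14 ± 0.352) and Hk2 (0.22 ± 0.402) were not called.

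In upper glycolysis Gpi1 was at 69.0, 81.7 and 62.2 CPM in healthy and 135, 249 and 501 in tumour-bearing lung (2.11 ± 0.468, adjusted p = 0.0153 in edgeR). Pfkfb3 and Pfkfb4 make or break fructose 2,6-bisphosphate, the activator of phosphofructokinase. Pfkfb4 was at 26.1, 32.2 and 16.4 against 87.4, 70.8 and 135 without overlap (2.17 ± 0.376, adjusted p = 0.00438). Pfkfb3 was at 10.5, 9.56 and 4.91 against 10.2, 30.9 and 56.8, so that day 7 did not differ (1.94 ± 0.525, 2 of 3 days, adjusted p = 0.0369). Gapdh rose from 224, 87.8 and 188 to 336, 639 and 464 (1.82 ± 0.459, 3 of 3 days, adjusted p = 0.0277 in edgeR). Slc16a3 was at 32.4, 27.0 and 26.2 CPM in healthy lung and at 121, 203 and 114 in tumour-bearing lung, without overlap (2.58 ± 0.525, 5.99-fold, adjusted p = 0.00966).

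The median difference of the members in lung was 0.59, and that of all genes -0.22. The remaining 24 members ran from -2.46 (Adm) to 1.53 (Pkm, adjusted p = 0.0571). Vegfa, the endothelial growth factor, was at 67.9, 123 and 58.9 in healthy and 41.6, 13.8 and 17.1 in tumour-bearing lung without overlap, and was not called (-1.58 ± 0.530, adjusted p = 0.0737 in edgeR). Scaled by library totals alone, 496 of 1429 called genes were higher in lung (34.7%) against 687 of 1012 (67.9%), the median of all genes moved to -0.49, Pfkfb3 lost its call and Vegfa was called lower. Without healthy lung and spleen of day 21, 6 members were called (2.67% of genes in either direction): Hk3, Pfkfb4, Slc16a3 and Slc2a3 kept their calls, Gapdh, Gpi1 and Pfkfb3 lost them, and Bnip3 and Slc2a1 were added. Gapdh, Gpi1 and Pfkfb3 were also lost without day 21. Without day 14 only Hk3 was called, the member that was called under all 11 alternatives.

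Spleen gave 3 members higher (2.79% of all genes) and none lower, each at 3 of 3 days, while neutrophils made up 0.62%, 1.96% and 4.11% of healthy and 9.80%, 47.5% and 50.6% of tumour-bearing cells. Slc2a3 was at 14.6, 23.3 and 20.5 CPM in healthy and 44.2, 94.1 and 59.4 in tumour-bearing spleen (2.05 ± 0.524, adjusted p = 0.0482 in edgeR). Hk3 was at 14.6, 8.32 and 20.5 against 29.2, 108 and 32.9 (2.27 ± 0.549, adjusted p = 0.0378). Pfkfb4 was at 11.3, 9.16 and 6.85 against 26.8, 41.9 and 20.01 (2.01 ± 0.460, adjusted p = 0.0285). In all 3 the groups did not overlap. The members' median was 0.65 and that of all genes -0.03. Hk2, at 9.70, 12.5 and 44.5 against 24.3, 57.5 and 55.6, was not called (1.62 ± 0.443, adjusted p = 0.0621 in edgeR).

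These spleen calls were close to the threshold. None was made without day 14, without the day block or with library totals alone, which moved the median of all genes to -0.32 and the share of higher among called genes from 84.3% to 69.7%. Without healthy lung and spleen of day 21, 4 members were called (1.92% of genes in either direction), namely Hk3, Pfkfb4, Hk2 and Slc16a3, and Slc2a3 was not. Slc2a3 kept its call under 3 of 11 alternatives, Pfkfb4 under 6 and Hk3 under 8.

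In scaffold none of 31 members was called between tumour-bearing and healthy mice (0.161% of all genes were), and Slc2a3 alone had an unadjusted p under 0.05. Slc2a3 was at 4.24, 5.67 and 7.13 CPM in healthy scaffold and at 7.92, 24.3 and 62.3 in tumour-bearing scaffold, without overlap (2.28 ± 0.531, adjusted p = 0.156 in edgeR). It was called by DESeq2, without the count filter and without day 7. Neutrophils made up 4.16%, 1.02% and 8.83% of healthy and 9.68%, 17.8% and 36.8% of tumour-bearing scaffold cells. The members' differences ran from -0.69 to 2.28 with a median of 0.27, that of all genes being 0.00.

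The difference of the tumour effect between tissues was tested directly. Between lung and scaffold no member was called, nor was any gene (0%), 8 members had an unadjusted p under 0.05, and DESeq2 called Hk3. The nearest was Hk3, whose effect was larger in lung by 2.51 ± 0.637 (adjusted p = 0.352 in edgeR). Between lung and spleen none was called (0.0179% of genes were), 5 had an unadjusted p under 0.05 and DESeq2 called none. In edgeR without the count filter the lung and scaffold difference was called for Gpi1, Hk3 and Slc16a3, and when each shared barcode was kept in 1 library at most, for Hk3. Without healthy lung and spleen of day 21 edgeR called no member for either difference.

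**Figure D4:**
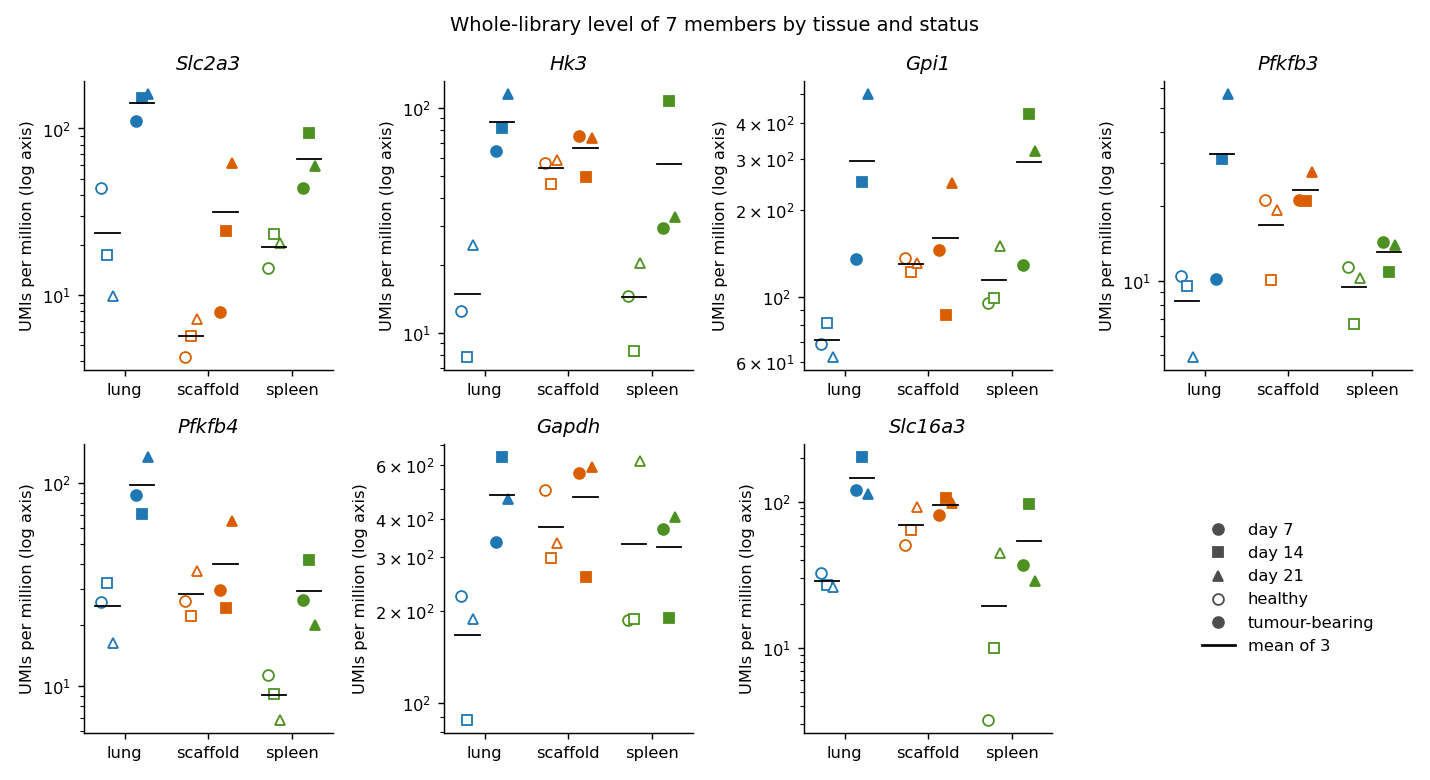
Whole-library level in CPM (vertical axis, logarithmic) of the 7 members called in lung, by tissue, 1 point per library, open for healthy and filled for tumour-bearing, with shapes for days and a line at the mean of 3. In lung the Slc2a3 values are 9.82 to 43.9 in healthy and 111 to 161 in tumour-bearing mice.

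Other genes of related pathways moved in the same tissues. Of 7 pentose phosphate genes, the branch that makes NADPH from glucose 6-phosphate, 3 were higher in tumour-bearing lung, where 6.16% of all genes were. These were G6pdx (2.71), Pgd (1.71) and Taldo1 (1.51) on the log2 scale. In spleen 2 were higher (G6pdx 2.93 and Pgd 1.65), where 2.79% of all genes were. Pygl, a glycogen phosphorylase, was higher in lung (2.60) and spleen (3.15), and Slc2a6 and Pgm1 in lung (3.00 and 1.38). Of 27 other hypoxia genes tested edgeR called none by status in lung, spleen or scaffold, and of 35 genes of the citric acid cycle and respiratory chain it called none. Between classes G6pdx (4.30), Pgd (3.40), Taldo1 (3.19) and Tkt (2.30) were higher in neutrophils than in lymphocytes.

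The fourth comparison set the scaffold against the other tissues over both statuses, 6 libraries each, with the day as a block. Hk2, Pfkl, Pfkp, Tpi1, Pgam1 and P4ha1 were higher in the scaffold than in both tissues, while Slc2a3 and Ddit4, an inhibitor of mTORC1 signalling induced by stress and hypoxia, were lower. Macrophages with C1q made up 17.3% to 32.1% of scaffold cells and 0.73% to 8.42% of cells in the other tissues, and the 8 macrophage genes summed to 14038 to 20007 CPM in scaffold and 789 to 8638 elsewhere. Tissue and this makeup cannot be told apart in whole libraries.

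Against lung 7 of 31 members were higher (10.1% of all genes) and 2 lower (10.4%), each in 6 of 6 pairs of the same day and status. Pgam1, the phosphoglycerate mutase, was at 39.2 to 86.5 CPM in scaffold (median 76.8) and 8.18 to 29.3 in lung (median 15.1), without overlap (1.76 ± 0.294, adjusted p = 8.49e-04 in edgeR). Pfkl, the liver-type phosphofructokinase, was at 27.1 to 37.7 (median 28.8) against 8.69 to 14.6 (median 10.8), without overlap (1.30 ± 0.218, adjusted p = 8.83e-04). Tpi1 (2.85-fold), Hk2 (2.22-fold) and the platelet-type phosphofructokinase Pfkp (1.64-fold) did not overlap either. Pdk1, the kinase that shuts pyruvate out of mitochondria, was higher 2.51-fold and P4ha1 2.12-fold, both with overlapping ranges.

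Slc2a3 was at 4.24 to 62.3 CPM in scaffold (median 7.53) and 9.82 to 161 in lung (median 77.6), lower in the scaffold in each pair (-2.43 ± 0.431, adjusted p = 0.00122 in edgeR). Ddit4 was at 2.12 to 17.4 (median 5.37) against 7.32 to 50.7 (median 15.7), and lower by 1.80 ± 0.323 on the log2 scale (adjusted p = 0.00134). Within neutrophils Ddit4 was at 15.7 to 33.5 in scaffold and 0 to 26.7 in lung, on 26 and 91 UMIs in all, 80 of the latter from tumour-bearing lung of day 21.

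Against spleen 10 members were higher (16.7% of all genes) and 2 lower (14.1%). P4ha1 was at 99.0 to 163 CPM in scaffold (median 127) and 24.8 to 92.4 in spleen (median 34.5), without overlap (1.53 ± 0.281, adjusted p = 7.89e-04 in edgeR). Bnip3 (2.72-fold), Slc16a3 (2.68-fold), Hk2 (2.61-fold), Slc2a1 (2.39-fold), Pgam1 (2.21-fold), Tpi1 (2.20-fold), Pfkl (1.79-fold), Hif1a (1.68-fold) and Pfkp (1.56-fold) were higher too, in 6 of 6 pairs except Bnip3 in 5. Ddit4 was lower by 2.14 ± 0.319 in 6 of 6 pairs and Slc2a3 by 1.63 ± 0.438 in 5 of 6. The members' median was 0.64 against lung and 0.66 against spleen, and that of all genes -0.04 and -0.08.

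Both comparisons depended on the day and on 2 libraries. Without healthy lung and spleen of day 21, 20 members were called against lung (28.5% of genes in either direction) and 18 against spleen (37.6%), including all 9 and all 12 named above. Without day 21 there were 19 and 20, without day 7 there were 4 and 3, and without day 14 there were 3 and 3. Of all 11769 genes tested without day 7, 594 were called against lung and 1626 against spleen in either direction. The counts without day 14 and without day 21 stand without such a share and describe the members only. Pgam1 and Slc2a3 against lung, and P4ha1 and Ddit4 against spleen, were called under all 11 alternatives. Library totals alone moved the share of higher among called genes from 49.2% to 67.8% against lung and from 54.2% to 64.9% against spleen, and the median of all genes to 0.10 and 0.03.

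**Figure D5:**
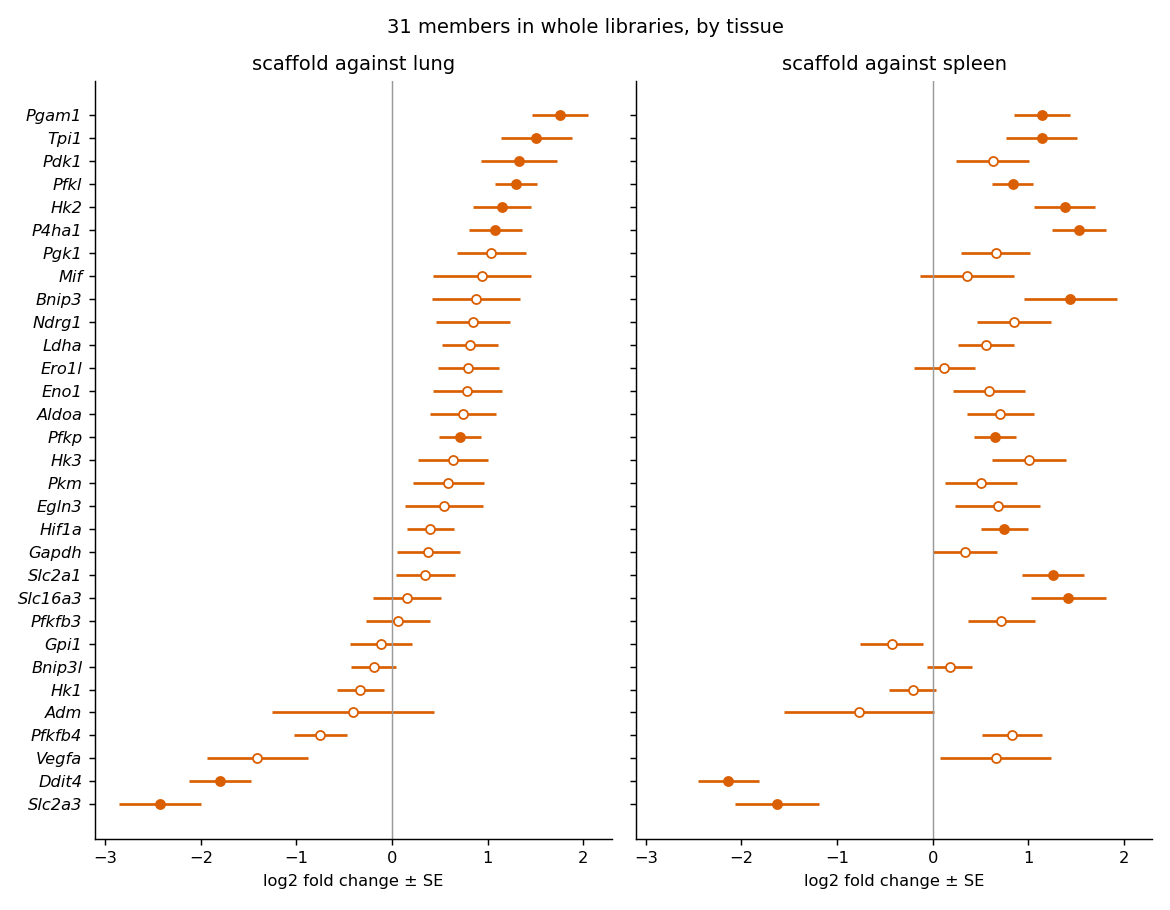
Log2 fold change with its standard error (horizontal axis) of the 31 members in whole libraries of scaffold against lung and against spleen, ordered by the first. Filled points passed an adjusted p under 0.05 and open points did not. Slc2a3 and Ddit4 stand at -2.43 and -1.80 against lung, and Pgam1 at 1.76.

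From the other lists, Eno2, Lox and Hmox1 were higher in scaffold than in lung (3.00, 2.54 and 1.95 on the log2 scale) and than in spleen (3.60, 3.05 and 2.03). Epas1, the HIF-2 subunit of endothelium among other cells, was lower in scaffold than in lung (-2.18 ± 0.485). Of the 35 citric acid cycle and respiratory chain genes 8 were higher against lung, where 10.1% of all genes were, and 2 against spleen, where 16.7% of all genes were. The count against spleen was thus below the share over all genes.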

How the data were processed

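Each library's table, as the authors deposited it, holds the raw UMI count of every gene in every cell barcode. The submitters' processing notes name the build mm10 and Seurat 2. How reads were aligned, annotated, assigned to cells and placed when they match several loci is not given in the sources used here. Members, gene lists and comparisons were chosen with earlier results of these data known.

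Cells with 200 or more genes and under 20% mitochondrial UMIs were kept. UMIs were summed per library, or per library and class where 20 or more cells were present. No doublets were removed, but 12 cells with C1q and lymphocyte genes were left out. After filterByExpr and TMM scaling, sums went into quasi-likelihood fits (edgeR 4.0.16 under R 4.3.3), and p-values were adjusted over all genes tested by Benjamini-Hochberg. Levels are CPM, UMIs per 1000000 UMIs of the sum. The comparison of lung neutrophils by status, the granule gene list and the fits without healthy lung and spleen of day 21 were added after values were seen. Every member called in a comparison was named there, and at most 4 called genes per other list and comparison. The rule for promoters took the 4 members called most often. Tests were tried on simulated counts first. The day paired a tumour-bearing with a healthy library: the correlation of their deviations across genes was 0.185 to 0.625 in 9 pairs. It was highest at day 21 in spleen (0.625) and lung (0.54), where the healthy libraries shared most barcodes with others of that day. Between different days it reached at most 0.359, in spleen. Deviations were taken from the mean of the 3 libraries of a group. Values of the same day and of different days are therefore not independent, and the gap between them is partly fixed. Alternatives were DESeq2 1.42.0, other scaling, no count filter, assigned barcodes, stricter cells and gates, each day left out and no block. Residual degrees of freedom were 6 to 25. Figures were drawn with matplotlib 3.10.9.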

Additional observations from a re-analysis of the deposited data

How the results depend on the processing

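No difference called in the main comparisons reversed its direction under the alternatives in which that member was tested, and members that were not called were not checked for this. Leaving out each day in turn gave 1 to 7 members called for the tumour effect in lung, 0 to 4 in spleen and 0 to 1 in scaffold. It gave 3 to 19 for scaffold against lung and 3 to 20 against spleen, 8 to 16 for neutrophils against lymphocytes and 5 to 9 for macrophages against lymphocytes. For tumour-bearing scaffold neutrophils it gave 0 to 3 against lung and 2 to 8 against spleen, and 0 to 1 for lung neutrophils by status. Without the count filter the counts were 13 in lung, 9 in spleen, 1 in scaffold, 3 for the lung and scaffold difference, 23 for neutrophils and 14 for macrophages against lymphocytes, 2 for scaffold against lung neutrophils, and 1 each for lung neutrophils by status and scaffold against lung macrophages. DESeq2 called 11 in lung, 9 in spleen, and 1 each in scaffold, for the lung and scaffold difference, for lung neutrophils by status and for scaffold against lung lymphocytes. With shared barcodes assigned to 1 library there were 16 in lung, 9 in spleen, 1 for the lung and scaffold difference, 22 for scaffold against lung and 16 for macrophages against lymphocytes. Library totals alone gave 0 in spleen and 1 for lymphocytes by tissue. Without the day block 0 were called in spleen, 0 for scaffold against lung neutrophils and 1 against spleen neutrophils, and the block moved no other count by over 1.5 times. Cells with 400 or more genes gave 15 for macrophages against lymphocytes and 0 for scaffold against lung neutrophils, and stricter gates 1 for lung neutrophils by status. Without healthy lung and spleen of day 21 there were 20 for scaffold against lung, and 1 each for lung neutrophils by status and scaffold against lung macrophages. The causes were not tested. The number of all genes called moved as well, in lung from 1012 to 1949 with DESeq2 and to 860 with shared barcodes assigned. Where a count under an alternative, here or above, has no share of all genes beside it, it describes the members only. Not run for lack of libraries were scaffold against lung macrophages with shared barcodes assigned, without day 21 or with 400 or more genes, and lung neutrophils by status with 400 or more genes. Depth limits the classes: 16 members did not pass the filter between classes, and healthy neutrophil sums hold 29 to 437 UMIs of all members together.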

Other observations

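Respiratory genes were set beside the members between classes. Of 24 citric acid cycle and respiratory chain genes tested, 19 were lower in neutrophils than in the C1q-positive macrophages (edgeR, adjusted p under 0.05), where 37.2% of all genes were, and 1 higher, with a median of -0.86 on the log2 scale against -0.17 for all genes. Fumarase Fh1 (-2.01 ± 0.350) and Idh3b (-1.91 ± 0.335) differed most. Against lymphocytes 10 of 24 were lower in neutrophils, near the 35.6% of all genes, and 2 higher, led by Fh1 (-1.94) and Idh3b (-1.84). Of 7 pentose phosphate genes 5 passed the filter, and 4 were higher in neutrophils than in the macrophages, where 30.9% of all genes were. They were led by G6pdx (2.44 ± 0.370) and Taldo1 (2.00 ± 0.198). These counts too describe the genes tested. Pygl was 3.63 ± 0.340 higher in neutrophils than in the macrophages and 5.87 ± 0.361 higher than in lymphocytes. The C1q-positive macrophages held more Hmox1, a heme oxygenase, than neutrophils, which stood at -2.11 ± 0.364 against them.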
